A study of Homo sapiens with 6 samples.

Results

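Genes that mark the epithelial-mesenchymal transition, 10 in all, were followed in HCT-8 cells given 5-fluorouracil (5-FU). They were the transcription factors SNAI1, SNAI2, ZEB1, ZEB2 and TWIST1, the cadherins CDH1 and CDH2, the intermediate filament gene VIM, and the matrix genes FN1 and TGFBI. Each was found by its symbol in the deposited gene count table, which gave 10 genes of 58735. HCT-8 is a human colorectal adenocarcinoma line, grown here as a monolayer. One group of 3 libraries came from cells treated with 5-FU, a pyrimidine analogue that inhibits thymidylate synthase and enters RNA and DNA, at the concentration that inhibits by 10%. The other group of 3 libraries came from untreated HCT-8 cells, and the sources used here do not state the duration or molar dose. The labels do not say whether replicates were grown separately; p-values here thus reflect only how these samples scatter, and that scatter may be technical.

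In the epithelial-mesenchymal transition, epithelial cells loosen their contacts and take on a motile, matrix-producing state. SNAI1, SNAI2, ZEB1 and ZEB2 are zinc finger repressors and TWIST1 is a basic helix-loop-helix factor; the zinc finger factors bind E-box sequences in the CDH1 promoter and repress it. CDH1 encodes E-cadherin, which joins epithelial cells at adherens junctions, and in a full transition it gives way to N-cadherin, encoded by CDH2. Vimentin, fibronectin and the collagen-binding protein encoded by TGFBI are common markers of the mesenchymal side, and TGFBI was named for its induction by TGF-beta.

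The matrix genes FN1 and TGFBI rose after 5-FU, by 1.99-fold and 1.93-fold, while E-cadherin, SNAI1, ZEB1 and VIM did not pass the test. Read counts of SNAI2, ZEB2, TWIST1 and CDH2 were too low for the test. None of the 10 genes was called lower. Counts were compared with the quasi-likelihood test of edgeR at a Benjamini-Hochberg adjusted p under 0.05, over the 19771 genes with enough reads, of which 70.2% were called, 36.3% higher and 33.9% lower after 5-FU. Of the 10 genes, 6 had enough reads and 2 were called, both higher. Without control replicate 2 the number called higher was 5, of 7 tested, SNAI2, ZEB1 and VIM joining FN1 and TGFBI; it was also 5 with upper-quartile factors and 4 with a minimum mean count of 50. Without control replicate 2, SNAI2 passed the count filter through its 5-FU libraries only, so its call there is not separate support. Over all genes, 7274 of 20623 were called higher without control replicate 2 and 9602 of 19771 with upper-quartile factors. With a minimum mean count of 50 it was 5141 of 14068, against 7171 of 19771 in the main test. The share of genes called is so high in these libraries that a call by itself does not set a gene apart.

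Gene counts summed to between 18459939 and 20613228 in the 5-FU libraries and between 21659252 and 23495607 in the control libraries. Mitochondrial transcripts took 25.5% to 28.5% of counts in 5-FU libraries, against 4.66% to 4.88% in control libraries. The balance of calls moved with the scaling of libraries, 51.7% of calls being higher after 5-FU with the TMM factors used here and 67.5% with upper-quartile factors. The median log2 fold change over all tested genes was 0.09 with TMM and 0.45 with upper-quartile factors. In the authors' FPKM (fragments per kilobase of gene, scaled per library), tested with limma on log2(FPKM + 1), the balance moved with the filter as well: 37.7% of calls were higher and the median was -0.20 among genes with at least 1 FPKM in 3 samples, against 50.1% and 0.04 without that filter. Colon epithelial markers were present in all libraries, with a summed level of 2989 to 4044 CPM (counts scaled to library size with TMM factors) in 5-FU and 4325 to 5999 CPM in control libraries, led by the keratin KRT8. KRT8 averaged 1905 CPM in 5-FU and 2828 CPM in control libraries, whereas KRT20 averaged only 1.95 CPM in 5-FU and 0.58 CPM in control libraries. Of these 8 markers 1, KRT20, was called higher, 3 were called lower and 4 were not called, against 36.3% higher and 33.9% lower of all tested genes. The level of a transcript in a bulk library does not tell fewer expressing cells from less RNA per cell.

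**Figure D1:**
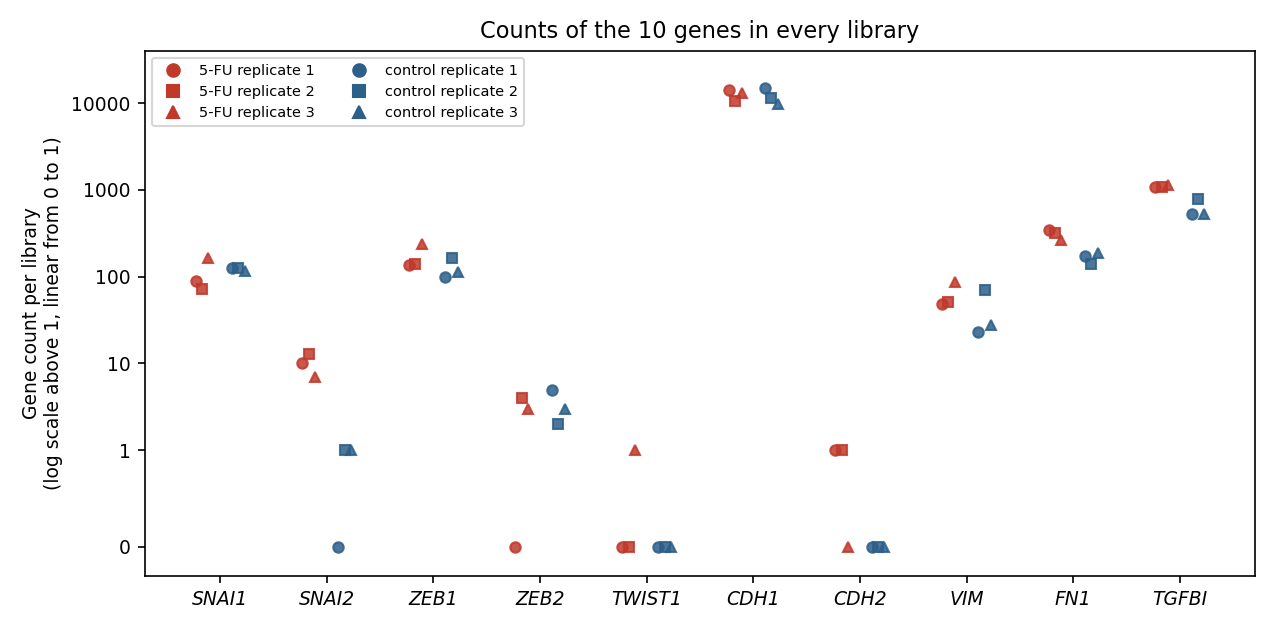
Gene counts (y axis, log scale above 1 and linear between 0 and 1) of the 10 genes (x axis) in each library, with 5-FU in red on the left of each pair and control in blue on the right; symbols mark the replicate. CDH1 lies between 9796 and 15057 counts, and SNAI2, ZEB2, TWIST1 and CDH2 lie at 13 counts or fewer.

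The promoter stretches of the matrix genes that rose are shown because they were the members called. RefSeq promoter sequences (GRCh38.p14) matched 6 of the 10 genes: FN1, TGFBI, VIM, ZEB1, ZEB2 and CDH2. The stretches below are given 5′ to 3′ on the strand of each gene and end just before the outermost transcript start annotated in GENCODE 29. They cover chr2:215436173-215436318 on the minus strand for FN1 (146 bases) and chr5:136028738-136028894 on the plus strand for TGFBI (157 bases). Capitals mark a match to a searched motif.
FN1: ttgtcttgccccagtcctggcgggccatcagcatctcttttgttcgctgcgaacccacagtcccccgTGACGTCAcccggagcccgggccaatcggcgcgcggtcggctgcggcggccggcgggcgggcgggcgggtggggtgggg
TGFBI: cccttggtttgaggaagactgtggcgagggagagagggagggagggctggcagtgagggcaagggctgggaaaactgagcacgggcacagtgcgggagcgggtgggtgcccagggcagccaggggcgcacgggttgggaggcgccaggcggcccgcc

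Motifs searched on both strands in 300-base windows were CACCTG, the E-box bound by SNAI and ZEB factors (CAGGTG on the other strand), TGACGTCA, the cyclic AMP response element, which is its own reverse complement, and TGACTCA, the AP-1 site (TGAGTCA on the other strand). None of them overlaps another in letters within these stretches. FN1 holds 1 copy of TGACGTCA, which starts 183 bases before the RefSeq transcript start. That motif is found in 1.85% of the 35116 promoter windows of the table, CACCTG in 20.6% and TGACTCA in 4.95%. The windows of TGFBI, VIM, ZEB2 and CDH2 hold none of the 3, and of the 7 windows of ZEB1, a gene with many annotated starts, 2 hold CACCTG, with 1 and 3 copies. A match describes letters only and was not set against the expression values.

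FN1, on chromosome 2 at 215360440 to 215436172 (minus strand, ENSG00000115414), encodes fibronectin, the matrix glycoprotein that integrins bind. Its level was 17.4, 16.5 and 12.4 CPM in the 5-FU libraries and 7.72, 6.33 and 9.23 CPM in the control libraries. Every 5-FU library lay above every control library, and 5-FU replicate 3 came nearest to the controls. These levels rest on 342, 316 and 262 counts in 5-FU and 172, 140 and 187 counts in control libraries. FN1 rose 1.99-fold (95% interval 1.49 to 2.66), with a log2 fold change of 0.99 (SE 0.19, edgeR adjusted p = 0.000712). Without any low-value filter on the log2(FPKM + 1) scale, which compresses low genes, the log2 difference was 0.32 and the call was lost (limma adjusted p = 0.0753). No exon of another annotated gene overlaps those of FN1.

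TGFBI, on chromosome 5 at 136028895 to 136063818 (plus strand, ENSG00000120708), encodes a secreted matrix protein that binds collagens and integrins. It had 54.6, 56.2 and 53.8 CPM in the 5-FU libraries and 23.9, 35.6 and 25.8 CPM in the control libraries. The 5-FU libraries lay close together and above all controls, of which control replicate 2 was the highest. TGFBI rose 1.93-fold (95% interval 1.53 to 2.42), a log2 fold change of 0.95 (SE 0.15, edgeR adjusted p = 0.00018). Its exons too share no bases with other annotated genes. This call was kept under all 18 alternatives, with log2 fold changes from 0.68 to 1.30. Of the 6 tested genes, FN1 and TGFBI were those whose groups did not overlap, both with 5-FU above control. Of all tested genes 74.3% showed groups that did not overlap, 38.4% with 5-FU above and 35.9% with 5-FU below control.

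Over 11417 other protein-coding genes whose mean count reached 100, the profiles over the 6 libraries nearest to that of FN1 were those of ZNF8 (Euclidean distance 0.14 in centred log2 CPM) and PCSK7 (0.17). Nearest to TGFBI were BTN2A2 (0.09) and EBF4 (0.10). BTN2A2 averaged 52.2 CPM in 5-FU and 26.1 CPM in control libraries, and ZNF8 36.7 CPM in 5-FU and 19.0 CPM in control libraries. With 6 libraries in 2 groups, many genes of a similar fold change have such profiles.

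CDH1, on chromosome 16 at 68737225 to 68835548 (plus strand, ENSG00000039068), was by far the most abundant of the 10. It had 713, 548 and 610 CPM in the 5-FU libraries and 675, 522 and 483 CPM in the control libraries. The groups overlapped, and replicate 1 was the highest library of each. The fold change was 1.11 (95% interval 0.87 to 1.43), a log2 fold change of 0.15 (SE 0.17, edgeR adjusted p = 0.417). Under TMM scaling that interval leaves out a fall of E-cadherin mRNA to below 0.87 times its control level and an increase beyond 1.43-fold. CDH1 was called higher with upper-quartile factors (log2 fold change 0.52, edgeR adjusted p = 0.0148), where the median of all genes stood at 0.45, and with a minimum mean count of 50 (0.41, adjusted p = 0.0475). An antisense gene, AC099314.1, covers 5.62% of its exonic bases but had at most 5 counts in any library.

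Ordered by FPKM among 19951 protein-coding genes of the same library, a rank that no scaling of libraries can change, CDH1 stood at places 64, 136 and 133 from the top in the 5-FU libraries. It stood at places 288, 368 and 459 in the control libraries, so the ranks of the groups did not overlap while the CPM did. TGFBI held places 5175, 5216 and 5428 in the 5-FU libraries and 9217, 7927 and 9040 in the control libraries. FN1 held places 11772, 11738 and 12195 in 5-FU and 12221, 12584 and 11995 in control libraries, which overlap. A rank moves with every other gene, so these places describe where a gene stands and not its own change. The FPKM of CDH1 itself averaged 94.5 in 5-FU and 94.2 in control libraries. The share of genes whose ranks did not overlap was not computed, and in CPM 74.3% of all tested genes did not overlap.

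CDH2, the mesenchymal counterpart on chromosome 18 at 27950966 to 28177446 (minus strand, ENSG00000170558), had 1, 1 and 0 counts in the 5-FU libraries and 0 in each control library. Both groups lie under the floor of 3 counts per library (0.134 to 0.157 CPM over the 6 libraries), so no fold change is given and any difference in N-cadherin mRNA was not detectable at this depth. Such floors and the count intervals below cover counting error only.

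**Figure D2:**
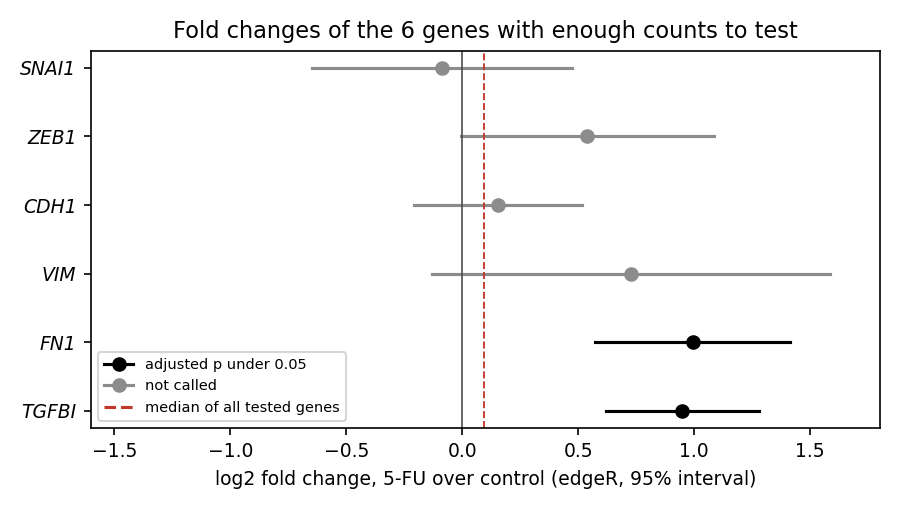
log2 fold change of 5-FU over control (x axis, edgeR, with its 95% interval) for the 6 genes with enough counts; black marks an adjusted p under 0.05, grey the others, and the dashed line the median of all tested genes at 0.09. The intervals of FN1 and TGFBI lie above 0 and above that median, and the other 4 intervals include 0.

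VIM, on chromosome 10 at 17228259 to 17237593 (plus strand, ENSG00000026025), encodes vimentin and was low in these epithelial cells. Its counts were 48, 51 and 87 in the 5-FU libraries and 23, 70 and 28 in the control libraries, that is 2.45, 2.66 and 4.12 CPM in 5-FU and 1.03, 3.16 and 1.38 CPM in control. Control replicate 2 lay above 5-FU replicates 1 and 2, so the groups overlapped. The fold change was 1.65 (95% interval 0.91 to 3.00), a log2 fold change of 0.73 (SE 0.39, edgeR adjusted p = 0.116). Without control replicate 2 it was called, at a log2 fold change of 1.32 (edgeR adjusted p = 0.00589), and with upper-quartile factors at 1.07 (adjusted p = 0.0339). The log2 fold change was 0.40 with control replicate 1 left out (edgeR adjusted p = 0.384), 0.43 with 5-FU replicate 3 left out (edgeR adjusted p = 0.406) and 0.19 on the unfiltered log2(FPKM + 1) scale (limma adjusted p = 0.391).

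Other genes share 24.4% of the exonic bases of VIM on the opposite strand, VIM-AS1 covering 12.4% and AL133415.1, which had 0 counts throughout, covering 12.0%. VIM-AS1 had 93, 101 and 89 counts in the 5-FU libraries and 14, 23 and 20 in the control libraries, with no overlap between the groups. It rose to 4.74 ± 0.53 CPM in 5-FU, against 0.88 ± 0.22 CPM in control libraries (SD, n = 3 per group; log2 fold change 2.42, SE 0.27, edgeR adjusted p = 1.55e-05). Counts of the antisense gene thus exceeded those of VIM in each 5-FU library and were below them in each control library. Whether counting used strand is not stated and the library kit as named does not mark it, so reads in the shared exons cannot be told apart, and their part in the VIM values was not tested.

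**Figure D3:**
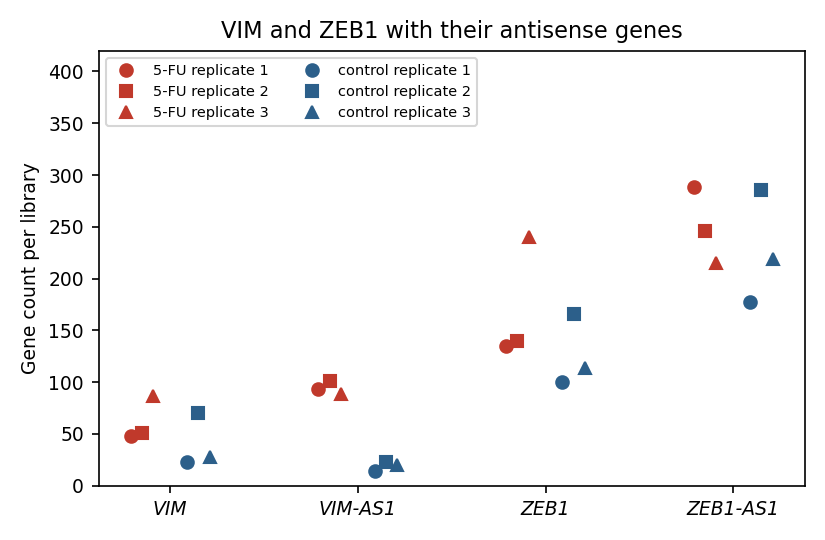
Gene counts per library (y axis) of VIM, VIM-AS1, ZEB1 and ZEB1-AS1 (x axis), with 5-FU in red on the left and control in blue on the right; symbols mark the replicate. VIM-AS1 lies between 89 and 101 counts in 5-FU and between 14 and 23 counts in control libraries, while the groups overlap for the other 3 genes.

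Ratios inside a library do not depend on how libraries are scaled, so the mesenchymal and matrix genes were also set against CDH1. The log2 ratio of FN1 to CDH1 counts was -5.35, -5.05 and -5.62 in the 5-FU libraries and -6.45, -6.36 and -5.71 in the control libraries. All 5-FU ratios lay above all control ratios, by 0.83 on average (exact two-sided permutation p = 0.1, the smallest that 3 against 3 can give). For TGFBI to CDH1 the ratio was -3.71, -3.29 and -3.50 in 5-FU and -4.82, -3.87 and -4.23 in control libraries, again without overlap (difference 0.81, exact permutation p = 0.1). The ratio of VIM to CDH1 overlapped between the groups, at -8.17, -7.67 and -7.20 in 5-FU and -9.32, -7.36 and -8.43 in control libraries (difference 0.69, exact permutation p = 0.4). That difference was 1.19 without control replicate 2 and 0.21 without control replicate 1. Relative to E-cadherin, FN1 and TGFBI thus stood higher in all 5-FU than in all control libraries, while the exact test cannot pass 0.05 in this design. Both were already called higher and CDH1 was not called, so these ratios are not separate support. In CPM, 38.4% of all tested genes had every 5-FU library above every control library. The share for ratios to CDH1 was not computed.

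**Figure D4:**
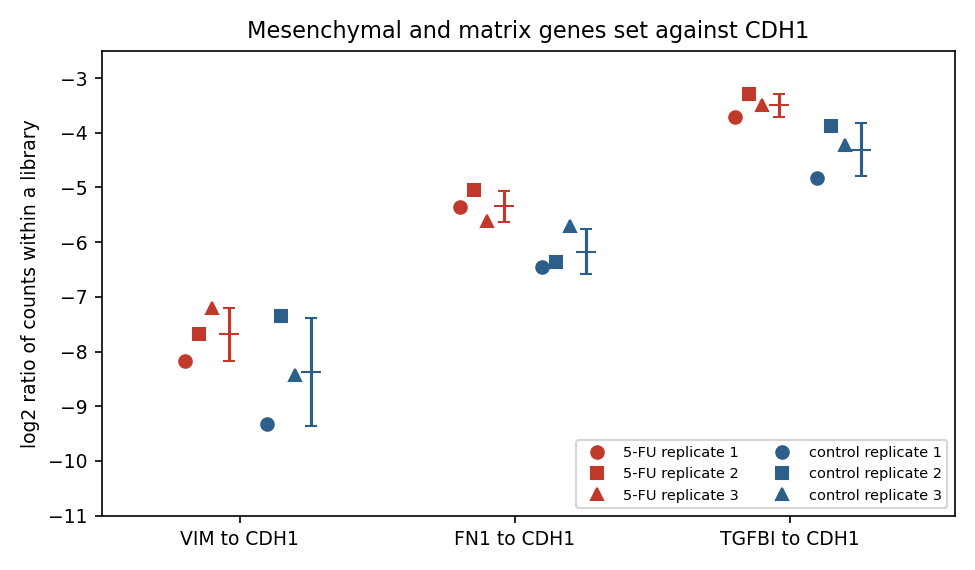
log2 ratio of counts to those of CDH1 in the same library (y axis) for VIM, FN1 and TGFBI (x axis), with 5-FU in red on the left and control in blue on the right; bars show the mean ± SD of 3 libraries. The FN1 and TGFBI ratios are higher in all 5-FU libraries than in any control library, and those of VIM overlap.

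Of the transcription factors, SNAI1, on chromosome 20 at 49982999 to 49988886 (plus strand, ENSG00000124216), had 4.53, 3.76 and 7.72 CPM in the 5-FU libraries and 5.70, 5.65 and 5.72 CPM in the control libraries. Controls agreed closely with each other, whereas the 5-FU libraries fell on both sides of them, replicates 1 and 2 below and replicate 3 above. The log2 fold change was -0.09 (95% interval -0.65 to 0.47, edgeR adjusted p = 0.768), and its sign turned without 5-FU replicate 1 (0.03), without 5-FU replicate 2 (0.10), with upper-quartile factors (0.27), with plain library totals (0.02) and with a minimum mean count of 50 (0.16). SNAI1 was called in none of its 18 alternatives.

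ZEB1, on chromosome 10 at 31318495 to 31529814 (plus strand, ENSG00000148516), had 6.88, 7.30 and 11.4 CPM in the 5-FU libraries and 4.49, 7.50 and 5.63 CPM in the control libraries. As for VIM, 5-FU replicate 3 was the highest of all and control replicate 2 the highest of the controls, above 5-FU replicates 1 and 2 here. The fold change was 1.45 (95% interval 0.995 to 2.12), a log2 fold change of 0.54 (SE 0.25, edgeR adjusted p = 0.0721). It was called in 5 of 16 alternatives: without control replicate 2 (log2 fold change 0.72, edgeR adjusted p = 0.0286), without 5-FU replicate 1 (0.69, 0.0417), with upper-quartile factors (0.89, 0.00892), with plain totals (0.64, 0.0433) and with a minimum mean count of 50 (0.78, 0.0193). The value was smaller when 5-FU replicate 3 was left out (0.25, edgeR adjusted p = 0.402), when control replicate 1 was left out (0.34, edgeR adjusted p = 0.279) and on the unfiltered log2(FPKM + 1) scale (0.17, limma adjusted p = 0.425). ZEB1-AS1, an antisense gene over 4.23% of its exonic bases, averaged 12.6 ± 2.26 CPM in 5-FU and 10.6 ± 2.50 CPM in control libraries (SD, n = 3 per group; edgeR adjusted p = 0.293).

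SNAI2, on chromosome 8 at 48917604 to 48921740 (minus strand, ENSG00000019549), was left out of the test by the low-count filter, with 10, 13 and 7 counts in the 5-FU libraries and 0, 1 and 1 in the control libraries. Each 5-FU library nevertheless lay above each control library. The sums of 30 counts in 5-FU and 2 counts in control gave a ratio of 16.2 at equal library size, with an exact 95% counting interval of 4.11 to 140 that leaves out the spread between samples. Where the filter let it in, it was called higher, at an edgeR adjusted p = 0.000144 without the filter and a DESeq2 adjusted p = 0.00781, among 7 such alternatives with adjusted p up to 0.0144. In the alternatives with 1 library left out, SNAI2 passed the filter through its 5-FU libraries only. A call higher there follows in part from how it entered and is not separate support. Its level stayed low, at 0.51 ± 0.17 CPM in 5-FU and 0.03 ± 0.03 CPM in control libraries (SD, n = 3 per group). The size of the change is thus too poorly measured to judge.

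ZEB2, on chromosome 2 at 144364364 to 144524583 (minus strand, ENSG00000169554), had 0, 4 and 3 counts in the 5-FU libraries and 5, 2 and 3 in the control libraries. The ratio of the sums, 7 counts to 10, was 0.76 with a counting interval of 0.24 to 2.20, which is too wide to tell a rise from a fall. TWIST1, on chromosome 7 at 19020991 to 19117672 (minus strand, ENSG00000122691), had 0, 0 and 1 counts in the 5-FU libraries and 0 in each control library. It lay under the floor in both groups and gets no fold change. Annotated pseudogenes named after the members, SNAI1P1 and ZEB2P1, had 0 counts in all libraries.

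Per length, the authors' FPKM put CDH1 first in both groups, at 94.5 ± 9.72 FPKM in 5-FU and 94.2 ± 17.7 FPKM in control libraries (SD, n = 3 per group). TGFBI came next, at 6.59 ± 0.28 FPKM in 5-FU and 3.77 ± 0.76 FPKM in control libraries, followed by SNAI1 at 2.98 ± 1.22 FPKM in 5-FU and 3.50 ± 0.08 FPKM in control libraries. In control libraries TGFBI and SNAI1 overlapped in level, and in 5-FU libraries TGFBI lay above SNAI1 throughout. ZEB1, FN1 and VIM followed in that order with means under 1 FPKM, and each overlapped its neighbour in both groups. SNAI2 came below them at 0.14 FPKM in 5-FU and 0.01 FPKM in control libraries. The remaining 3 had means below 0.01 FPKM in both groups.

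Other genes of the pathway moved both ways, as did all tested genes, of which 36.3% were called higher and 33.9% lower. The counts of each list below are to be read beside these shares. Of 12 further transition factors 8 could be tested, and 1 rose, 4 fell and 3 did not pass (median log2 fold change -0.36, against 0.09 over all tested genes). The E-protein TCF3, which pairs with TWIST1, fell to 82.0 ± 1.46 CPM in 5-FU, against 199 ± 27.1 CPM in control libraries (log2 fold change -1.28, SE 0.13, edgeR adjusted p = 6.94e-06). FOXQ1, a forkhead factor, fell by 0.92 on the log2 scale, and the homeobox factor PRRX1 by 2.11 from a low level. KLF8, a zinc finger repressor, rose by 2.12, to 1.94 CPM in 5-FU, against 0.44 CPM in control libraries. PRRX1 (SE 0.60) had 11, 14 and 36 counts in 5-FU and 26, 173 and 83 in control libraries, so its groups overlapped. Without control replicate 2 its log2 fold change was -1.41 (edgeR adjusted p = 0.0428). The call of PRRX1 was lost on the log2(FPKM + 1) scale without a filter (-0.44, limma adjusted p = 0.139).

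Regulators of epithelial identity were all testable: 2 of 14 rose, 7 fell and 5 did not pass, at a median of -0.28. GRHL3, a grainyhead factor of epithelial barriers, rose to 20.8 ± 5.32 CPM in 5-FU, against 5.16 ± 1.07 CPM in control libraries (2.01, SE 0.23). KLF5, a factor of proliferating crypt cells, fell to 119 ± 0.82 CPM in 5-FU, against 232 ± 2.94 CPM in control libraries (-0.97, SE 0.11). The intestinal factors CDX2 (-1.14) and HNF4A (-0.80) fell as well, while with upper-quartile factors 4 members of the list were higher and 4 lower.

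Among 24 epithelial junction genes 3 rose, 11 fell and 10 did not pass, at a median of -0.16, but with upper-quartile factors 9 were higher and 5 lower. With a minimum mean count of 50, 7 were higher and 6 lower. CLDN1, a tight junction claudin, rose to 16.1 ± 5.41 CPM in 5-FU, against 3.00 ± 1.42 CPM in control libraries (2.42, SE 0.32). EPCAM, an epithelial adhesion molecule, fell to 241 ± 28.4 CPM in 5-FU, against 465 ± 58.2 CPM in control libraries (-0.95, SE 0.15). The desmosomal plakophilins PKP2 (-0.82) and PKP3 (-1.07) fell. These 4 genes kept their calls and directions under all 18 alternatives.

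Of 21 other cadherins 10 had enough reads, of which 3 rose, 1 fell and 6 did not pass, at a median of 0.15. CDH7, a type II cadherin, rose to 10.3 ± 3.95 CPM in 5-FU, against 1.88 ± 0.67 CPM in control libraries (2.44, SE 0.32). CDH24, another type II cadherin, rose to 135 ± 10.7 CPM in 5-FU, against 84.7 ± 6.18 CPM in control libraries (0.67, SE 0.12). CDH26 (1.86) rose and CDH16 (-1.69) fell at levels near 1 CPM. The CDH16 call was lost without control replicate 2 (-1.18, edgeR adjusted p = 0.082) and without 5-FU replicate 2 (-1.34, edgeR adjusted p = 0.0597), and on the log2(FPKM + 1) scale without a filter the calls of CDH16 and CDH26 were both lost (limma adjusted p = 0.0868 and 0.0579).

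Of 25 other mesenchymal and matrix genes 19 could be tested; 9 rose, 6 fell and 4 did not pass, at a median of 0.34. In FPKM of at least 1 in 3 samples 3 were higher and 5 lower, and without a low-count filter 8 were higher and 8 lower. ACTA2, smooth muscle actin, rose to 5.90 ± 0.49 CPM in 5-FU, against 1.42 ± 0.49 CPM in control libraries (2.05, SE 0.27), though genes such as ACTA2-AS1 share 30.1% of its exonic bases. The proteoglycan gene VCAN rose by 2.68 to 2.77 CPM in 5-FU libraries. S100A4, a calcium-binding protein often used as a mesenchymal marker, fell to 311 ± 8.33 CPM in 5-FU, against 605 ± 44.1 CPM in control libraries (-0.96, SE 0.13).

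TGF-beta signal genes, all 11 testable, rose for 5, fell for 4 and did not pass for 2, at a median of -0.08; in DESeq2 and without a low-count filter 2 were higher and 4 lower. The ligand TGFB1 fell to 55.3 ± 5.45 CPM in 5-FU, against 105 ± 4.89 CPM in control libraries (-0.92, SE 0.12). Its receptors TGFBR1 (-0.98) and TGFBR2 (-0.89) fell too, as did BAMBI (-0.63). The other ligands of the list, TGFB2 (0.52) and TGFB3 (0.64), were called higher, as were SMAD3 (0.47) and SMAD7 (0.76). SKIL, a feedback inhibitor of SMAD signalling, rose to 35.1 ± 3.70 CPM in 5-FU, against 16.2 ± 2.49 CPM in control libraries (1.11, SE 0.15).

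**Figure D5:**
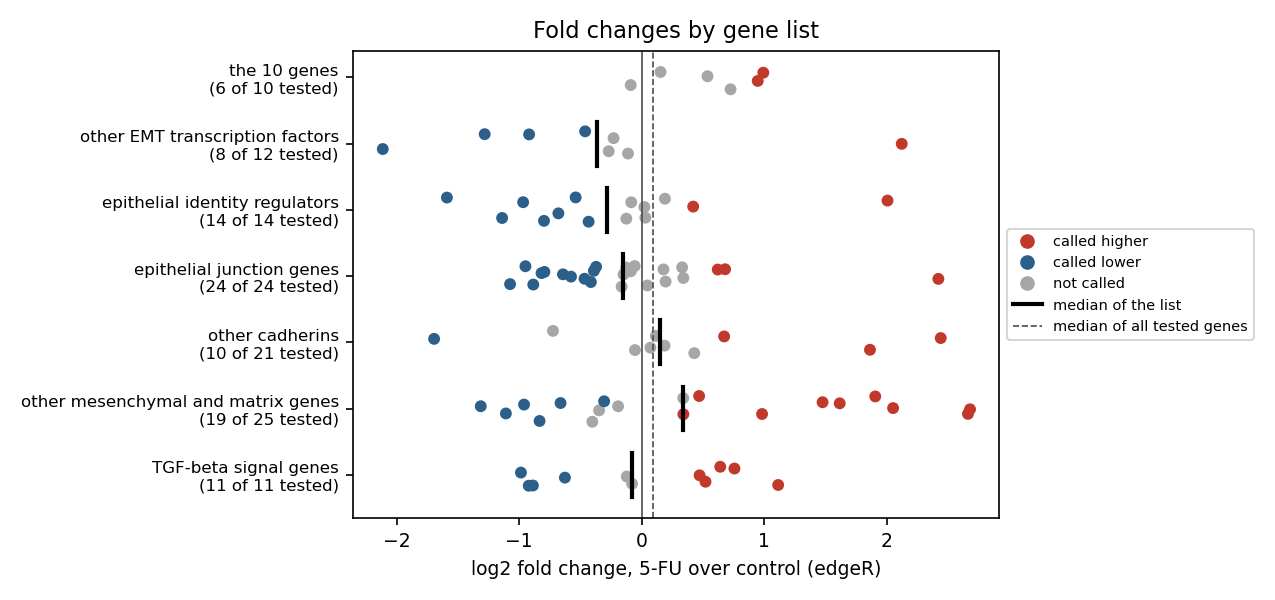
log2 fold change of 5-FU over control (x axis, edgeR) for the tested genes of each list (y axis); red points were called higher, blue lower and grey not called, black bars are list medians and the dashed line is the median of all tested genes at 0.09. The medians of the other 6 lists run from -0.36 for the other transition factors to 0.34 for the other mesenchymal and matrix genes. Each of those lists holds genes called in both directions. Of the 10 genes only 6 were tested, drawn without a median, and none of these was called lower, against 33.9% of all tested genes.

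Summed by list, markers of other cell types were low beside the colon epithelial markers. Fibroblast markers, 9 genes, summed to 34.7 to 65.6 CPM in 5-FU and 16.1 to 20.6 CPM in control libraries, most of it COL1A1. PDGFRB had 26 to 82 counts per library and was not called. COL3A1 had 13, 8 and 12 counts in 5-FU and 1, 1 and 3 in control libraries. COL1A2, PDGFRA, THY1 and FAP had at most 14 counts in any library, and the defining fibroblast genes DCN and LUM had 0 counts throughout. Endothelial markers, 5 genes led by PECAM1, summed to 3.88 to 5.71 CPM in 5-FU and 2.17 to 3.16 CPM in control libraries, and the defining CDH5 and KDR had at most 10 and 4 counts in any library. Leukocyte markers, 6 genes led by CD14, summed to 12.9 to 14.1 CPM in 5-FU and 11.2 to 11.8 CPM in control libraries, with at most 7 counts of PTPRC, the pan-leukocyte marker, in any library. Each of these lists held 1 gene called higher, named here after the values were seen. Only 2 fibroblast, 2 endothelial and 3 leukocyte markers could be tested, and 36.3% of all tested genes were called higher. COL1A1, a collagen chain, rose to 42.4 ± 16.1 CPM in 5-FU, against 15.2 ± 3.06 CPM in control libraries (log2 fold change 1.48, edgeR adjusted p = 0.000204). CSF1R, a macrophage growth factor receptor, rose to 2.71 ± 0.19 CPM in 5-FU, against 0.63 ± 0.17 CPM in control libraries (2.10, edgeR adjusted p = 7.9e-05). VWF, the von Willebrand factor, rose to 2.13 ± 0.37 CPM in 5-FU, against 1.08 ± 0.17 CPM in control libraries (0.97, edgeR adjusted p = 0.00934; DESeq2 adjusted p = 0.0643). Their part in the rise of FN1 and TGFBI was not tested.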

How the data were processed

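Gene counts and FPKM of 6 libraries (3 from 5-FU treated and 3 from untreated HCT-8 cells) were used. The authors deposited whole-number counts per gene without normalization, and FPKM which equal the count over the gene length and 1 constant per library (1.07 to 1.16 times the total in 5-FU and 0.892 to 0.986 times in control libraries). Per the submitters' processing notes the tools were featureCounts 1.5.0-p3, DESeq2 1.16.1 and HISAT2 2.0.5, on GRCh38. The sources used here give neither strand setting nor handling of multi-mapped reads. All 58735 identifiers and positions matched GENCODE 29.

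Counts were tested with edgeR 4.0.16 in R 4.3.3 (filterByExpr with minimum count 10 and minimum total 15, TMM, quasi-likelihood, group alone, Benjamini-Hochberg over 19771 genes). The SE is the coefficient over the square root of F, and intervals are 95% on its t distribution. A member that filterByExpr leaves out is called too low to judge. limma 3.58.1 was used for FPKM and voom, and DESeq2 1.42.0 as an alternative. Ratios used counts + 0.5 and an exact permutation test. The test was checked on simulated counts with few changed genes, as many up as down, and no built-in shift of the mitochondrial share. That setting differs from these libraries, so the check does not cover how they were scaled. Alternatives were other library factors, mitochondrial genes left out, no or a stricter count filter, other tests, the replicate block, each library left out, and FPKM. Within a group, the chi-square per gene between libraries was 6.26 to 15.5, above counting noise.

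The members and lists were chosen with earlier results of these data known. Named genes were the 10 members, up to 4 called genes of smallest p per pathway list, the most abundant marker of each other cell type, genes whose exons overlap a member, and the 2 nearest profiles per called member. Of the genes this rule gave, 1 is not reported here, though it counts in the totals of its list.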

Additional observations from a re-analysis of the deposited data

How the results depend on the processing

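The number of the 10 genes called higher was 2 and moved to 5 with upper-quartile factors, 4 at a mean count of at least 50, and 1 on the log2(FPKM + 1) and log2(FPKM + 0.1) scales with at least 1 FPKM in 3 samples, where 3 of the 10 were tested; leaving out 1 library gave 2 to 5, the 5 without control replicate 2. The 5 without control replicate 2 included SNAI2, which passed the filter there through its 5-FU libraries only. Over all genes, 7171 of 19771 were called higher in the main test, 9602 of 19771 with upper-quartile factors and 5141 of 14068 at that mean count. On the log2(FPKM + 1) and log2(FPKM + 0.1) scales with that filter, 4320 and 4268 of 16093 were called higher. Without control replicate 2 it was 7274 of 20623. None of the 10 was called lower in any of the 18 alternatives, which tested from 3 to 10 of them. A member left out of a test could not be called there. The alternatives reuse the same 6 libraries and are not separate support. In the main test 33.9% of all tested genes were called lower. The log2 fold change of SNAI1 turned to 0.27 with upper-quartile factors, 0.017 with plain totals and 0.16 at a mean count of at least 50, and ranged from -0.48 to 0.10 over the libraries left out; the cause was not tested. CDH1 stayed between 0.01 and 0.52, above 0 in all 18 alternatives. The replicate number as a block gave 13243 called genes, against 13877 without it, and the same number of members called, 2 higher; same-numbered libraries correlated at -0.10, -0.25 and 0.07 in their deviations, so the numbers were not taken to pair the samples. Depth limits SNAI2, ZEB2, TWIST1 and CDH2, whose counts did not exceed 13 in any library.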
